A study of Mus musculus with 8 samples.

Results

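The genes described here are 10 genes of MHC class II antigen presentation, taken by symbol from the array's gene names with all of their probes, out of 34741 gene symbols on the array. They were read by 12 probes, 2 each for H2-Ab1 and Cd80 and 1 for each other gene. Expression was measured in cells and tissue of C57BL/6 mouse hearts on 8 one-colour arrays, 2 in each of 4 groups, to set the transcriptomes of differently digested and sorted heart cells beside heart muscle. The first group, passage-8 cells, held 8th-passage derivatives of c-kit+/CD45+ cells. CD45-negative cells were primary c-kit+/CD45- cells sorted from cultured explants of the left atrial appendage, after strong digestion with 0.25% trypsin. CD45-positive cells were primary c-kit+/CD45+ cells sorted from such cultures after a weak digestion with 0.05% trypsin. Both digestions also contained 0.1% collagenase D, and the appendages came from mice 8 to 12 weeks old. The left ventricle group held wall biopsies of 12-week-old mice, which served as the control. c-kit is a receptor tyrosine kinase used to sort progenitor-like cells, and CD45 is the surface phosphatase of white blood cells. Digestion strength and sort gate changed together, so their parts in a difference between CD45-negative and CD45-positive cells cannot be told apart. Ventricle RNA was extracted with another reagent than RNA of the cells, which also cannot be told apart from the tissue. Whether the 2 arrays of a group stand for different cultures or animals is not given in the labels, and p-values then measure only the spread between these arrays, which may be technical.

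MHC class II molecules are pairs of an alpha and a beta chain that show peptides from the endosome to CD4 T cells. The invariant chain, encoded by Cd74, escorts new pairs to the endosome, where H2-DM removes its remnant so that peptides can bind. Dendritic cells, B cells and macrophages carry the pathway, under the coactivator Ciita, which joins the RFX and NF-Y factors bound to X and Y boxes before the chain, H2-DM and invariant chain genes. Cd80 and Cd86 give T cells their costimulatory signal and Cd40 receives one back. C57BL/6 mice make the I-A pair, of the H2-Aa and H2-Ab1 products, but no I-E pair, since their alpha chain gene H2-Ea is silent, although the beta chain gene H2-Eb1 is transcribed.

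A log2 level is the log2 of a probe's processed signal over its array's 75th percentile, so a level of 0 equals that percentile, and levels of different probes are not compared. The 75th percentile itself was 976.5 and 973.9 signal units in passage-8 cells, 521.5 and 425.9 in CD45-negative cells, 839.0 and 897.0 in CD45-positive cells, with 600.2 and 569.4 in ventricle. Between 51.5% and 69.9% of spots of an array were well above background, and none was saturated. The SD between the 2 arrays, over 17961 genes, was 0.534 log2 units in CD45-negative cells, against 0.147 in passage-8 cells, 0.177 in CD45-positive cells, with 0.363 in ventricle, so CD45-negative values are the least certain. Ptprc, the gene of CD45, had log2 levels of -5.57 and -5.18 in passage-8 cells and -5.52 and -3.34 in CD45-negative cells, against 2.04 and 1.93 in CD45-positive cells, with -2.33 and -2.89 in ventricle. Kit had -5.68 and -5.55 in passage-8 cells, -6.34 and -1.55 in CD45-negative cells, -3.57 and -3.33 in CD45-positive cells, with -1.48 and -2.48 in ventricle, and was not well above background on the first CD45-negative array. Ventricle had all 5 cardiomyocyte markers well above background on both arrays.

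The promoters of 3 of the genes are shown because letters of the X and Y boxes stand in each of them at nearly the same spacing. Promoter windows from RefSeq, build GRCm38.p6, were at hand for 5 of the 10 genes, in 6 windows, and not for H2-Ab1, Cd74, Ciita, Cd86 or Cd40. Capitals mark the X core CTNGNAAC and, downstream, the Y core ATTGG. The stretches lie at chr17:34287847-34287927 on the minus strand for H2-Aa, chr17:34305753-34305832 on the plus strand for H2-Eb1 and chr17:34153074-34153154 on the plus strand for H2-DMb1.
H2-Aa: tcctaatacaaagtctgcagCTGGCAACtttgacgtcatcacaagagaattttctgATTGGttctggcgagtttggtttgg
H2-Eb1: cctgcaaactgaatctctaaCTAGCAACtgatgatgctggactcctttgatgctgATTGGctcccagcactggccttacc
H2-DMb1: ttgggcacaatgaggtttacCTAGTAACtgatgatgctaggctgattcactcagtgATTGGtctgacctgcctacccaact
The X core began 36 bases before the Y core in H2-Aa and H2-DMb1 and 35 bases before it in H2-Eb1. Both strands of the 250 bases before each start were searched, and a pair counted where the Y core began 25 to 45 bases downstream of the X core on the same strand. Such a pair stood in 3 of the 6 windows, and in 74 of all 32851 mouse windows, or 0.225%. Counted singly, paired or not, the Y core stood in 4 of the 6 windows and in 33.8% of all windows, and the X core in 3 of the 6 and in 10.9% of all. These X core letters were chosen after the 3 promoters had been read, so the match describes them and is no test. With the letters chosen first, CCNNGNNAC, a pair stood in 1 of the 6 windows and in 0.959% of all windows. Of the 2 H2-DMa windows 1 held a Y core without such an X core, and the other, like the Cd80 window, held neither.

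**Figure D1:**
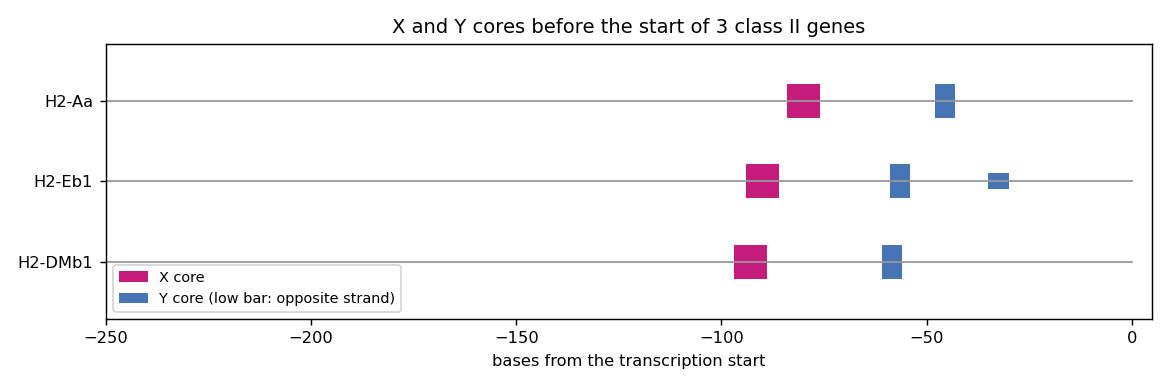
X cores (pink) and Y cores (blue) in the 250 bases before the transcription start of H2-Aa, H2-Eb1 and H2-DMb1, with the position in bases from the start on the horizontal axis. In each gene an X core stands 35 or 36 bases before a Y core on the gene's strand, and H2-Eb1 has another Y core on the opposite strand, drawn low.

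Passage-8 cells carried less of the class II genes than CD45-positive cells, the kind of cell they derive from, and most of the genes were also lower in CD45-negative cells than in CD45-positive cells. A gene passed at a limma adjusted p under 0.05 with a log2 difference of at least 1, and it was tested where either group had it well above background on its 2 arrays. In passage-8 against CD45-positive cells, 9 of the 10 genes were tested, of which 9 were lower and 0 higher, while of the 23422 genes tested 10.9% were lower and 12.6% higher. H2-Aa, Cd86 and Cd40 were tested there only because CD45-positive cells had them well above background, so they could hardly pass as higher. In CD45-negative against CD45-positive cells 9 were tested, of which 7 were lower and 0 higher, against 10.5% lower and 11.2% higher of 21506 genes. H2-Aa, Cd74 and Cd86 were tested there only through CD45-positive cells and likewise could hardly pass as higher. The median difference of the 9 tested genes was -4.81 and -2.77 in these comparisons, against 0.16 and 0.17 over all genes tested. In passage-8 against CD45-negative cells 2 of 7 tested genes were lower, H2-Ab1 and Cd40, and 0 higher, against 6.98% lower and 6.96% higher of 22757 genes. The median of the 7 tested genes was -1.05, against -0.01 for all genes tested. Cd40 was tested in that comparison only through CD45-negative cells, and Cd74 only through passage-8 cells. There 5 passed without the first CD45-negative array and 0 with only the 4 arrays of these groups in the fit. Comparisons that share a group share its arrays. In bulk RNA, fewer cells of a type and less RNA per cell cannot be told apart. The count in CD45-negative against CD45-positive cells fell to 2, H2-DMa and Cd74, without either of the 2 CD45-positive arrays, with adjusted p from 0.0538 to 0.0852 for the other 5.

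**Figure D2:**
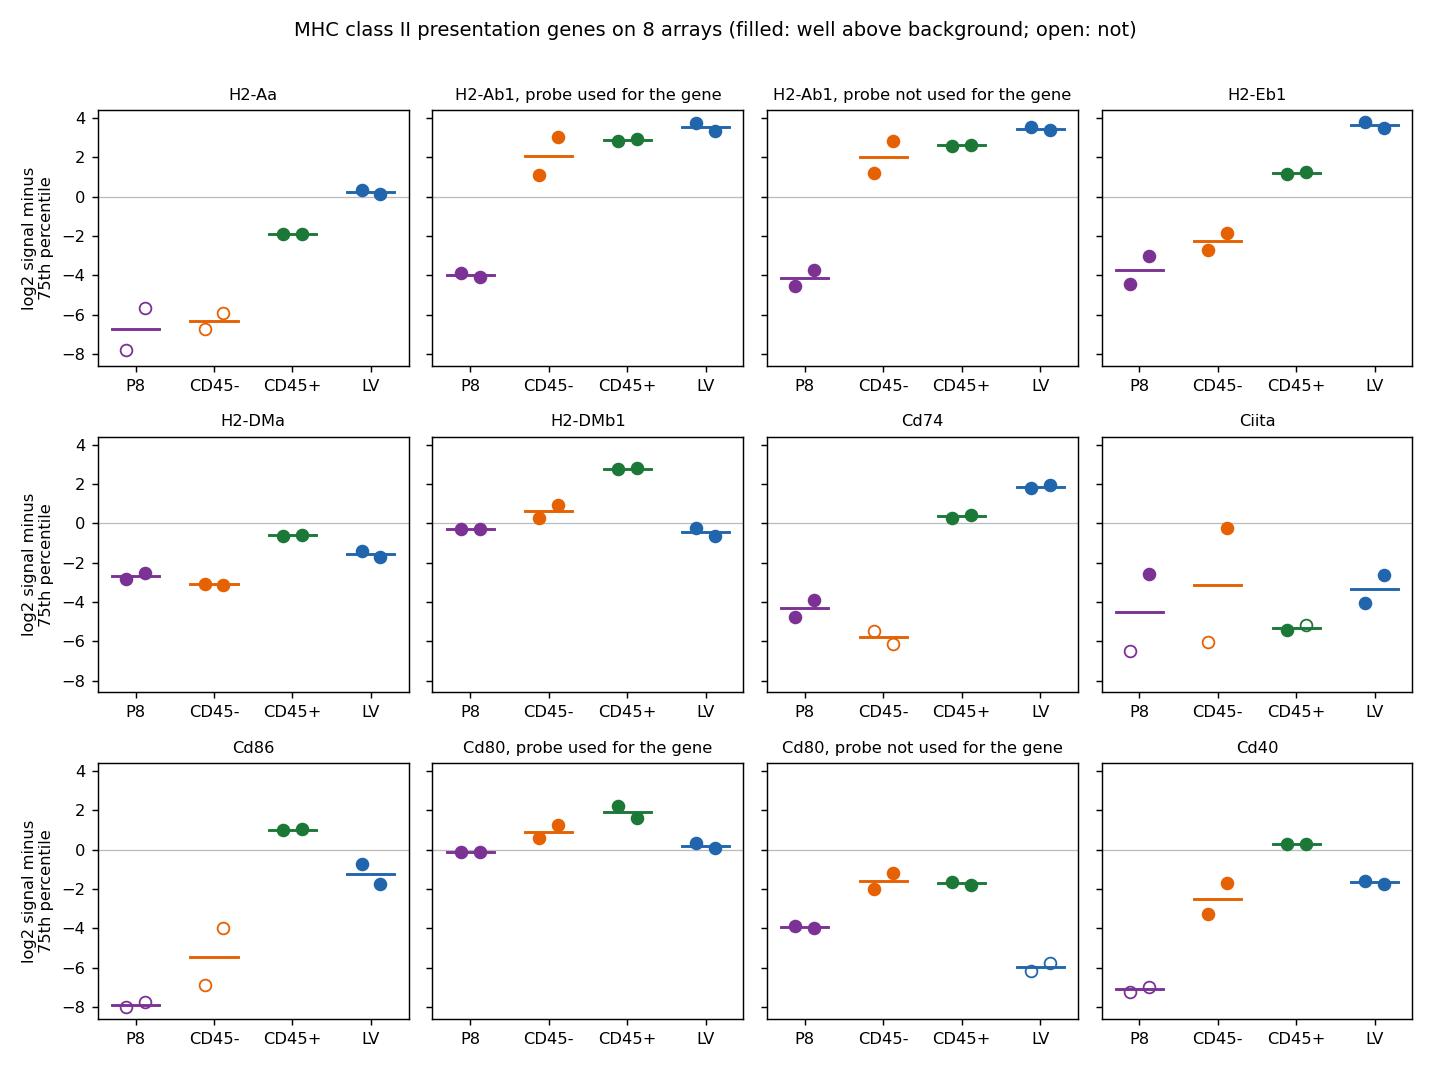
Log2 level of each of the 12 probes on each of the 8 arrays (vertical axis, log2 signal minus the array's 75th percentile), for passage-8 cells (P8), CD45-negative cells (CD45-), CD45-positive cells (CD45+) and left ventricle (LV), with a bar at the mean of the 2 arrays. Filled points are well above background and open points are not, as for H2-Aa and Cd86 in both passage-8 and CD45-negative cells.

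Of the class II chains, the alpha chain gene H2-Aa was not well above background in passage-8 or CD45-negative cells. Its log2 levels were -7.77 and -5.65 in passage-8 cells and -6.73 and -5.90 in CD45-negative cells, against -1.91 and -1.88 in CD45-positive cells, with 0.32 and 0.12 in ventricle. The arrays of the first 2 groups lay below every array of the other 2. H2-Aa was at least 14.1-fold lower in passage-8 than in CD45-positive cells (log2 difference -4.81, SE 0.69, adjusted p = 0.00575). It was at least 6.61-fold lower in CD45-negative cells than in CD45-positive cells (-4.42, adjusted p = 0.00904). Such a bound sets the brighter group's mean against the lowest signal called well above background on each array of the dim group, or the probe's own signal where that is higher. Against ventricle it was at least 60.9-fold lower in passage-8 cells and at least 28.6-fold lower in CD45-negative cells (adjusted p = 0.000817 and 0.00097). CD45-positive cells did not pass against ventricle (-2.11, adjusted p = 0.0511), though without either passage-8 array in the fit adjusted p was 0.00723.

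The beta chain gene H2-Ab1, the partner of H2-Aa in the I-A pair, was well above background in CD45-negative cells and did not pass there against CD45-positive cells. Log2 levels were -3.85 and -4.07 in passage-8 cells, 1.10 and 3.02 in CD45-negative cells, 2.83 and 2.92 in CD45-positive cells, with 3.74 and 3.32 in ventricle, all well above background. The second CD45-negative array was above both CD45-positive arrays and the first was below them. H2-Ab1 was 114-fold lower in passage-8 than in CD45-positive cells (log2 difference -6.84, SE 0.61, adjusted p = 0.00145), and also 64.9-fold lower in passage-8 than in CD45-negative cells (-6.02, adjusted p = 0.00382). With only the 4 arrays of passage-8 and CD45-negative cells in the fit, the -6.02 had an adjusted p of 0.0748. Between CD45-negative and CD45-positive cells the difference did not pass (-0.81, adjusted p = 0.364). It was 0.15 without the first CD45-negative array, and -1.78 with an adjusted p of 0.0113 without the second. Against ventricle H2-Ab1 was 180-fold lower in passage-8 cells (-7.49, adjusted p = 0.000444). CD45-negative cells (-1.47, adjusted p = 0.0953) and CD45-positive cells (-0.66, adjusted p = 0.418) did not pass against ventricle. Without the second CD45-negative array the first of these was -2.43, with an adjusted p of 0.003.

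The 2 probes of H2-Ab1 overlap by 51 bases and differ there at a single position, so they are near copies of a single measurement. Around that position, which capitals mark, they read:
H2-Ab1, probe used for the gene: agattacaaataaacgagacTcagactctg
H2-Ab1, other probe: agattacaaataaacgagacCcagactctg
The substitution is T51C, counted from 1 at the 5′ end of the probe used for the gene. The other probe gave -4.52 and -3.74 in passage-8 cells, 1.20 and 2.84 in CD45-negative cells, 2.59 and 2.65 in CD45-positive cells, with 3.56 and 3.37 in ventricle. Its differences passed and failed as those of the first probe did, with -6.75, -0.60 and -6.15 for passage-8 against CD45-positive, CD45-negative against CD45-positive and passage-8 against CD45-negative cells.

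H2-Eb1, the beta chain gene of the I-E pair, had log2 levels of -4.42 and -3.00 in passage-8 cells, -2.70 and -1.83 in CD45-negative cells, 1.18 and 1.24 in CD45-positive cells, with 3.80 and 3.51 in ventricle. No 2 groups overlapped. It was 30.3-fold lower in passage-8 than in CD45-positive cells (log2 difference -4.92, SE 0.53, adjusted p = 0.00238) and 11.1-fold lower in CD45-negative cells than in CD45-positive cells (-3.47, adjusted p = 0.00835). Passage-8 and CD45-negative cells did not differ beyond the threshold (-1.45, adjusted p = 0.121). Against ventricle H2-Eb1 was lower in all 3 cell groups, 166-fold in passage-8 cells, 60.6-fold in CD45-negative cells and 5.46-fold in CD45-positive cells (adjusted p = 0.000304, 0.000571 and 0.0128). The last of these no longer passed when any 1 array of CD45-positive cells or ventricle was left out (adjusted p from 0.0526 to 0.0695). Its would-be partner H2-Ea stayed at background on all 8 arrays.

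The invariant chain gene Cd74 had log2 levels of -4.75 and -3.89 in passage-8 cells, -5.46 and -6.12 in CD45-negative cells, 0.29 and 0.44 in CD45-positive cells, with 1.77 and 1.93 in ventricle. It was not well above background in CD45-negative cells. The order ventricle, CD45-positive, passage-8 and CD45-negative held for every array. Cd74 was 25.7-fold lower in passage-8 than in CD45-positive cells (log2 difference -4.69, SE 0.37, adjusted p = 0.0011) and at least 31.6-fold lower in CD45-negative cells than in CD45-positive cells (-6.16, adjusted p = 0.00207). Passage-8 against CD45-negative cells came to 1.47 with an adjusted p of 0.0501, and to 1.80 with 0.0404 without the first CD45-negative array. Against ventricle it was 72.0-fold lower in passage-8 cells (adjusted p = 0.000202), at least 88.6-fold lower in CD45-negative cells (adjusted p = 0.000124) and 2.80-fold lower in CD45-positive cells (adjusted p = 0.0215). The last was -1.20 with an adjusted p of 0.094 when arrays were scaled by their medians, and did not pass when any 1 array of either group was left out (adjusted p from 0.0728 to 0.106). In CD45-negative cells, then, H2-Ab1 was well above background on both arrays and Cd74 on neither.

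H2-DMa and H2-DMb1 encode the alpha and beta chains of the peptide exchange factor H2-DM. H2-DMa had log2 levels of -2.84 and -2.51 in passage-8 cells, -3.07 and -3.14 in CD45-negative cells, -0.66 and -0.58 in CD45-positive cells, with -1.39 and -1.73 in ventricle. H2-DMb1 had -0.28 and -0.31 in passage-8 cells, 0.26 and 0.94 in CD45-negative cells, 2.77 and 2.79 in CD45-positive cells, with -0.26 and -0.65 in ventricle. Both genes were highest in CD45-positive cells, with no overlap with the other groups. H2-DMa was 4.14-fold lower in passage-8 cells and 5.58-fold lower in CD45-negative cells than in CD45-positive cells (log2 differences -2.05 and -2.48, SE 0.23, adjusted p = 0.00277 and 0.00288). H2-DMb1 was 8.40-fold lower in passage-8 cells and 4.52-fold lower in CD45-negative cells than in CD45-positive cells (-3.07 and -2.18, SE 0.29, adjusted p = 0.0017 and 0.00597).

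Against ventricle, H2-DMa was lower in passage-8 and CD45-negative cells and H2-DMb1 higher in CD45-negative and CD45-positive cells; the difference between the 2 genes was not tested. H2-DMa came to a log2 difference of -1.11 in passage-8 cells (adjusted p = 0.011) and -1.54 in CD45-negative cells (adjusted p = 0.0033), while CD45-positive cells had 0.94 more, under the fold minimum, with an adjusted p of 0.0204. The passage-8 difference came to -0.94 without the first passage-8 array or the first ventricle array and then no longer passed. It was -0.92 with an adjusted p of 0.0968 under median scaling, where the CD45-positive difference was 1.23 and passed (adjusted p = 0.0379). H2-DMb1 was 9.40-fold higher in CD45-positive cells than in ventricle (3.23, adjusted p = 0.000621). It was 2.08-fold higher in CD45-negative cells (1.06, adjusted p = 0.0284), a call lost in 6 of 8 fits that each left out 1 array, including that without the second CD45-negative array (0.72, adjusted p = 0.0531) and that without the second ventricle array (0.87, adjusted p = 0.119). In passage-8 cells H2-DMb1 came to 0.16 against ventricle (adjusted p = 0.678). Between passage-8 and CD45-negative cells neither DM gene passed (0.43 and -0.89, adjusted p = 0.258 and 0.0951), and H2-DMb1 passed at -1.23 (adjusted p = 0.0264) without the first CD45-negative array.

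The probe of the coactivator gene Ciita differed widely between the 2 arrays of passage-8 and of CD45-negative cells. Its log2 levels were -6.47 and -2.59 in passage-8 cells, -6.05 and -0.25 in CD45-negative cells, -5.44 and -5.19 in CD45-positive cells, with -4.03 and -2.65 in ventricle. In each cell group 1 array was not well above background, so the gene was tested only against ventricle, where no cell group passed (log2 differences of -1.19 in passage-8, 0.19 in CD45-negative and -1.98 in CD45-positive cells, SE 2.08, adjusted p = 0.672, 0.948 and 0.476). Whether its signal measures the Ciita transcript was not tested.

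Among the costimulatory genes, Cd86 (B7-2), like H2-Aa, was not well above background in 2 groups. Its log2 levels were -8.01 and -7.76 in passage-8 cells and -6.89 and -3.98 in CD45-negative cells, against 0.98 and 1.05 in CD45-positive cells, with -0.71 and -1.73 in ventricle. None of the 4 arrays of the first 2 groups was well above background. Cd86 was at least 106-fold lower in passage-8 than in CD45-positive cells (log2 difference -8.90, SE 0.92, adjusted p = 0.00218) and at least 41.0-fold lower in CD45-negative cells than in CD45-positive cells (-6.45, adjusted p = 0.00698). Against ventricle it was at least 22.4-fold lower in passage-8 cells and at least 8.71-fold lower in CD45-negative cells (adjusted p = 0.0025 and 0.0127), and the CD45-negative call was lost without the first ventricle array (adjusted p = 0.0745). In CD45-positive cells against ventricle Cd86 came to 2.24 (adjusted p = 0.0982). This passed under median scaling (2.52, adjusted p = 0.0214) and without either CD45-negative array in the fit (2.24, adjusted p = 0.00884).

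Cd40, the receptor for the T cell's CD40 ligand, separated passage-8 from CD45-negative cells. Its log2 levels were -7.21 and -6.96 in passage-8 cells, -3.26 and -1.71 in CD45-negative cells, 0.27 and 0.29 in CD45-positive cells, with -1.58 and -1.74 in ventricle, and only passage-8 cells were not well above background. Cd40 was at least 63.5-fold lower in passage-8 than in CD45-positive cells (log2 difference -7.37, SE 0.49, adjusted p = 0.000702) and 6.82-fold lower in CD45-negative cells than in CD45-positive cells (-2.77, adjusted p = 0.0131). It was at least 9.32-fold lower in passage-8 than in CD45-negative cells (-4.60, adjusted p = 0.00459), a call that had an adjusted p of 0.0782 with only the 4 arrays of these groups in the fit. Against ventricle it was at least 16.5-fold lower in passage-8 cells (adjusted p = 0.000609) and 3.85-fold higher in CD45-positive cells (1.95, adjusted p = 0.0227). The CD45-positive call was lost when any 1 array of CD45-positive cells or ventricle was left out (adjusted p from 0.082 to 0.0995). CD45-negative cells came to -0.82 against ventricle (adjusted p = 0.219), and to -1.60 with an adjusted p of 0.00442 without the second CD45-negative array.

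Cd80 (B7-1) had 2 probes that did not agree against ventricle. The probe used for the gene, at chr16:38486772-38486831 of mm9, gave log2 levels of -0.13 and -0.12 in passage-8 cells, 0.58 and 1.27 in CD45-negative cells, 2.23 and 1.61 in CD45-positive cells, with 0.33 and 0.09 in ventricle. The other, at chr16:38479343-38479402, gave -3.89 and -3.97 in passage-8 cells, -2.02 and -1.16 in CD45-negative cells, -1.63 and -1.79 in CD45-positive cells, with -6.15 and -5.76 in ventricle, where it was not well above background. Their starts lie 7429 bases apart. A stretch of the first probe and the whole of the second, with no letter singled out, read:
Cd80, probe used for the gene: aaaggagaggtgcctagtcttactgcaact
Cd80, other probe: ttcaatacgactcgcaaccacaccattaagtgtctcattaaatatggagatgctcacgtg
Both probes were lower in passage-8 than in CD45-positive cells, the first 4.13-fold (log2 difference -2.05, SE 0.33, adjusted p = 0.00852) and the other 4.66-fold (-2.22, SE 0.35, adjusted p = 0.00808), the other from a fit of every probe on its own. Without the first CD45-positive array the first probe came to -1.74 with an adjusted p of 0.0606. In CD45-negative against CD45-positive cells neither passed, at -0.99 for the first (adjusted p = 0.0779) and 0.12 for the other (adjusted p = 0.827). In passage-8 against CD45-negative cells the first did not pass (-1.05, adjusted p = 0.0884) and the other did (-2.34, adjusted p = 0.0124).

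Against ventricle the first Cd80 probe was 3.27-fold higher in CD45-positive cells (1.71, adjusted p = 0.00907) and did not pass in passage-8 (-0.34, adjusted p = 0.445) or CD45-negative cells (0.71, adjusted p = 0.129). The other probe was higher than in ventricle in all 3 cell groups, at least 2.04-fold in passage-8 cells, at least 10.3-fold in CD45-negative cells and at least 9.51-fold in CD45-positive cells (adjusted p = 0.0057, 0.000452 and 0.000495). Which of the 2 reads the Cd80 transcript in heart muscle was not tested.

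**Figure D3:**
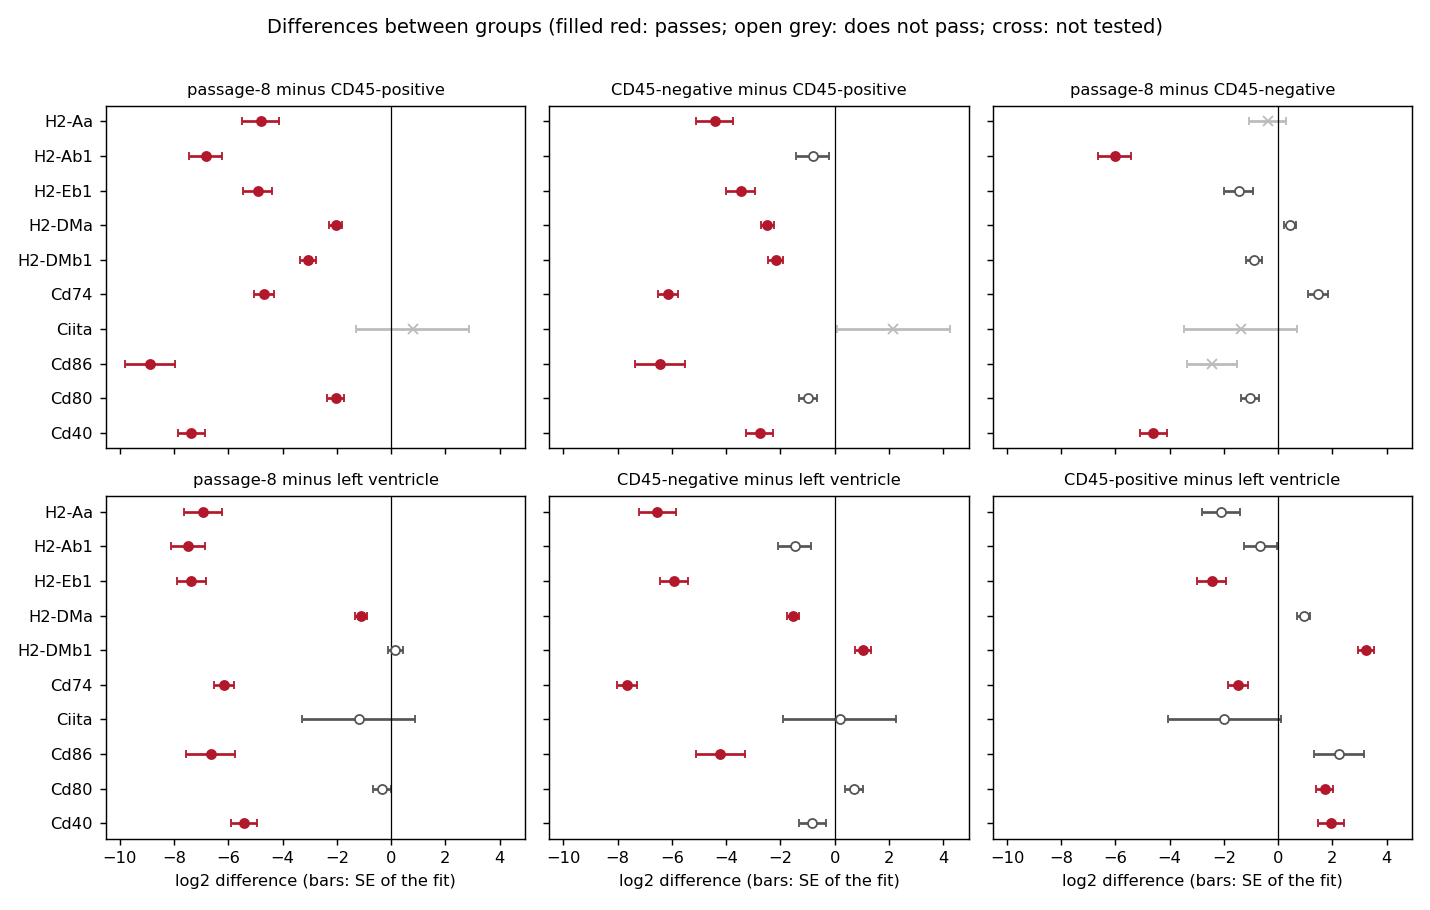
Log2 difference of each of the 10 genes in the 6 comparisons (horizontal axis, first group minus second; bars show the SE of the limma fit). Filled red points pass, open grey points do not, and crosses were not tested; all 9 tested genes lie left of 0 in passage-8 against CD45-positive cells.

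In the comparisons with ventricle, the 3 chain genes and Cd74 had their highest mean level in heart muscle, while H2-DMb1, Cd80 and Cd40 were higher in CD45-positive cells. H2-Aa and H2-Ab1 did not pass between CD45-positive cells and ventricle. Of the 10 genes, all tested, 7 were lower and 0 higher in passage-8 cells than in ventricle, against 18.8% lower and 20.3% higher of 23965 genes. At an unadjusted p under 0.05, 0 were higher too. In CD45-negative cells 5 were lower and 1, H2-DMb1, was higher, against 19.2% and 20.3% of 22265 genes. H2-Aa, Cd86 and Cd40 in passage-8 cells were well above background on no array, so against ventricle they could hardly pass as higher. The same holds for H2-Aa, Cd74 and Cd86 in CD45-negative cells. In CD45-positive cells 2 were lower, H2-Eb1 and Cd74, and 3 were higher, H2-DMb1, Cd80 and Cd40, against 19.8% and 18.3% of 23074 genes. The CD45-positive counts lie near the background share. The medians of the 10 genes were -5.80, -1.5 and 0.14 in passage-8, CD45-negative and CD45-positive cells, against 0.05, 0.06 and -0.02 over all genes tested. Without single arrays between 1 and 6 of the 10 genes passed in CD45-positive cells against ventricle, with 1 passing without the first CD45-positive array or the second ventricle array, 2 without the second CD45-positive array and 3 without the first ventricle array.

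Macrophage markers, like the class II genes, were lower in passage-8 and CD45-negative cells than in CD45-positive cells. The summed signal of 7 macrophage markers, in multiples of the array's 75th percentile, was 6.05 and 5.93 in passage-8 cells, 3.06 and 30 in CD45-negative cells, 738 and 720 in CD45-positive cells, with 38.4 and 31.4 in ventricle. All 7 passed as lower both in passage-8 and in CD45-negative cells than in CD45-positive cells, against 10.9% and 10.5% of all genes. Adgre1 and C1qa were well above background on no passage-8 array. They were tested there only through CD45-positive cells and could hardly pass as higher. Against ventricle 6 of the 7 were higher in CD45-positive cells, against 18.3% of all genes. Fcgr1 was tested against CD45-negative cells and ventricle only through CD45-positive cells. Adgre1, the F4/80 surface protein of macrophages, had log2 levels of -7.75 and -5.20 in passage-8 cells, -3.47 and 1.43 in CD45-negative cells, 5.99 and 5.90 in CD45-positive cells, with 0.20 and 0.20 in ventricle. The second CD45-negative array was thus above the first for these markers, as it was for H2-Ab1, H2-Eb1, H2-DMb1, Cd80 and Cd40. H2-DMa was slightly lower on the second array (-3.07 and -3.14). H2-Aa, Cd74 and Cd86 were not well above background on either CD45-negative array, nor Ciita on the first, so their order there is not read. Ventricle had 0.20 for Adgre1, below CD45-positive cells, and higher H2-Eb1 and Cd74 than they did. The part of macrophage transcripts in the class II differences was not tested.

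**Figure D4:**
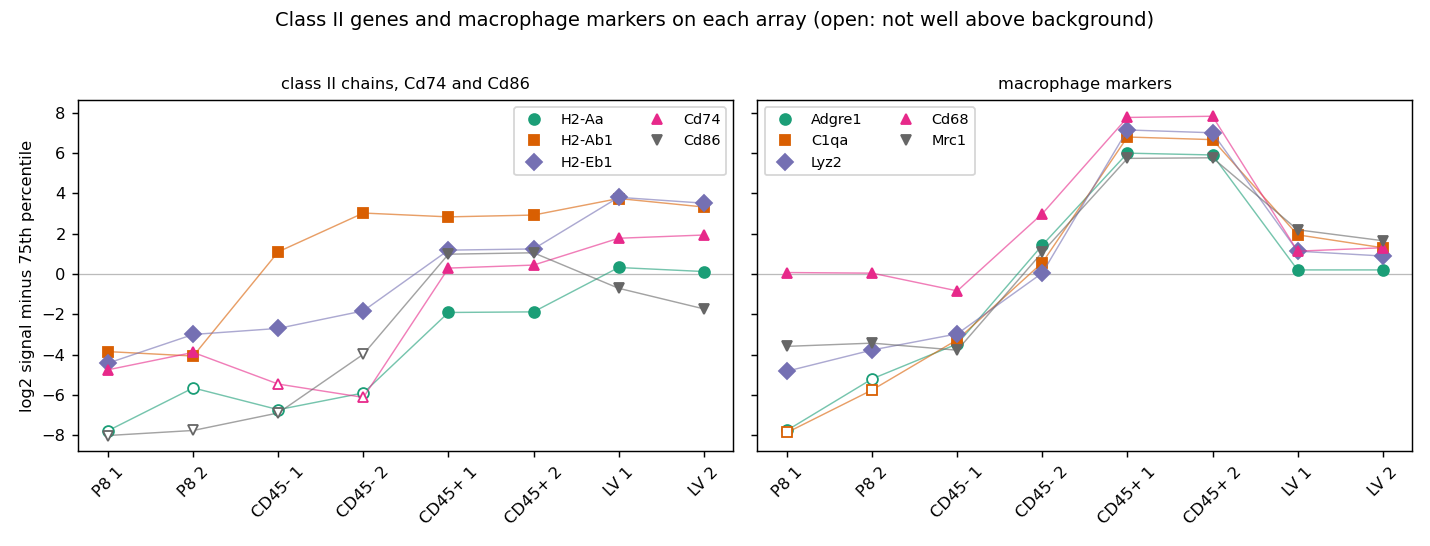
Log2 level on each array of 5 class II genes (left) and 5 macrophage markers (right), with arrays in group order along the horizontal axis (P8, passage-8 cells; CD45-, CD45-negative cells; CD45+, CD45-positive cells; LV, left ventricle). Lines join the arrays of a gene for the eye only and open points are not well above background; macrophage markers are highest in CD45-positive cells, while H2-Eb1, H2-Aa and Cd74 are highest in ventricle.

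Of the 7 dendritic cell markers, 2 to 4 were well above background on an array, with Xcr1, Clec9a and Cd209a on none, and their summed signal was 0.439 and 0.482 in passage-8 cells, 0.448 and 3.32 in CD45-negative cells, 42.3 and 45 in CD45-positive cells, with 0.52 and 0.441 in ventricle. Itgax, the integrin CD11c that macrophages can carry too, made up most of the CD45-positive sum, with log2 levels of 5.39 and 5.48 there. Of the 3 dendritic cell markers tested in passage-8 against CD45-positive cells 1 passed in each direction. Of all genes tested there, 10.9% were lower and 12.6% higher. Itgax was at least 2266-fold lower in passage-8 cells (adjusted p = 0.00372) and Zbtb46, a transcription factor of that lineage, was higher (log2 difference 1.40, adjusted p = 0.0118). Itgax, on no passage-8 array well above background, was tested only through CD45-positive cells and could hardly pass as higher. B cell markers summed to 0.767 and 0.615 in ventricle, against 0.267 to 0.728 on the cell arrays. Cd79b, a chain of the B cell receptor complex, had -2.08 and -2.71 in ventricle, against -5.55 or less on every cell array. Others of these markers did not follow it. Cd79a had -1.30 and -1.38 in ventricle, with -0.59 on the second CD45-negative array. Pax5 had -5.01 and -6.04 in ventricle, with -4.61 on the second passage-8 array. All 5 B cell markers were well above background on the first ventricle array, and 2 on the second. Haemoglobin and other red cell transcripts summed to 300 and 203 in ventricle, against at most 0.107 on the cell arrays, so ventricle RNA held blood transcripts. Endothelial markers summed to 43 and 52.7 in ventricle, against 6.75 to 20.6 on the cell arrays. Whether blood, endothelial or other resident cells carry the ventricle's class II signal was not tested.

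Other genes of the pathway, from lists of known function chosen with earlier results of these data known, are given by their counts. Of the 6 other class II chain and H2-DO genes, 5 were on the array, and 2 were tested in passage-8 against CD45-positive cells and 3 in passage-8 cells against ventricle. H2-Eb2 passed in both, and no other of these genes passed in any of the 6 comparisons. Of all genes tested, 12.6% and 20.3% were higher in these 2 comparisons. The log2 levels of H2-Eb2 were -3.36 and -3.51 in passage-8 cells, against -6.15 and -6.28 in CD45-positive cells, where it was not well above background, and -4.52 and -5.36 in ventricle, where 1 of the 2 arrays was above. It was at least 3.85-fold higher in passage-8 than in CD45-positive cells (adjusted p = 0.00777) and came to 1.5 against ventricle (adjusted p = 0.035). Both tests of H2-Eb2 were possible only through passage-8 cells.

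Of 11 transcription factors that act on class II promoters, 2 were lower and 1 higher in passage-8 than in CD45-positive cells, and of 10 tested 3 were lower and 1 higher in CD45-negative cells than in CD45-positive cells. With 12.6% and 11.2% of all genes higher, and 10.9% and 10.5% lower, 1 or 2 of such a list lie near the background. Spi1 (PU.1) and Irf8, factors of the macrophage and dendritic lineages, had the largest differences of these. Spi1 was at background on every array of passage-8 cells, CD45-negative cells and ventricle. It was therefore tested against CD45-positive cells only through that group and could hardly pass as higher. It was at least 51.6-fold lower in passage-8 and at least 24.3-fold lower in CD45-negative cells than in CD45-positive cells (log2 differences -7.65 and -6.36, adjusted p = 0.000404 and 0.00206). Irf8, which 1 of the 2 passage-8 arrays did not measure well above background, came to -9.95 in passage-8 cells (adjusted p = 0.00225) and -5.09 in CD45-negative cells (adjusted p = 0.0199). The passage-8 test of Irf8 was possible only through CD45-positive cells. Of the RFX subunits, Rfx5 came to 1.20 and Rfxank to 0.69 in passage-8 against CD45-positive cells, neither passing (adjusted p = 0.101 and 0.31). The NF-Y subunits differed in direction: Nfyb was higher in passage-8 cells (1.10, adjusted p = 0.0428), and in CD45-negative cells Nfyc was higher (1.10, adjusted p = 0.0186) and Nfya lower (-2.08, adjusted p = 0.00671), each against CD45-positive cells.

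Of 8 genes of endosomal processing, all tested, 7 were lower and 1 higher in passage-8 than in CD45-positive cells, and 4 lower and 1 higher in CD45-negative cells than in CD45-positive cells, against 10.9% lower and 12.6% higher of all genes in passage-8 cells and 10.5% and 11.2% in CD45-negative cells. The count of 1 higher is near the background. Ctss, the protease that trims the invariant chain, had log2 levels of -3.45 and -5.68 in passage-8 cells, -1.63 and 3.56 in CD45-negative cells, 8.46 and 8.26 in CD45-positive cells, with 1.83 and 1.72 in ventricle. It was lower in passage-8 and in CD45-negative cells than in CD45-positive cells (-12.92 and -7.39, adjusted p = 0.00412 and 0.0257), with the second passage-8 array not well above background. The passage-8 test of Ctss was thus possible only through CD45-positive cells. The asparaginyl protease gene Lgmn (-3.40 and -2.09) and the thiol reductase gene Ifi30 (-1.99 and -2.96) were lower in passage-8 and CD45-negative cells too, with adjusted p from 0.000927 to 0.00646. The cathepsin B gene Ctsb was lower in both too (-2.33 and -1.78, adjusted p = 0.00441 and 0.0119). Marchf1, whose ubiquitin ligase removes class II from the surface, was the gene that rose, by 1.34 in passage-8 cells and 2.41 in CD45-negative cells (adjusted p = 0.00611 and 0.00232), each against CD45-positive cells. Against ventricle it was lower in passage-8 and CD45-positive cells (-1.23 and -2.57, adjusted p = 0.0041 and 0.000378) and did not pass in CD45-negative cells (-0.15, adjusted p = 0.55).

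Of 8 further ligands of T cells, 6 were tested, and 4 were lower in passage-8 and 3 in CD45-negative cells than in CD45-positive cells, and none was higher, against 10.9% and 10.5% of all genes lower. The inhibitory ligand gene Cd274 (PD-L1) came to -5.69 and -5.14 (adjusted p = 0.00118 and 0.00275), and Cd83, a marker of mature dendritic cells, to at least 640-fold lower in passage-8 cells (adjusted p = 0.0117). In CD45-negative cells Cd83 came to -7.30 (adjusted p = 0.0426), with 1 of 2 arrays well above background. Both tests of Cd83 were possible only through CD45-positive cells. With no passage-8 array well above background, Cd83 could hardly pass as higher in passage-8 cells. Icam1, an adhesion ligand of T cells, was lower in both (-1.21 and -2.40, adjusted p = 0.00898 and 0.00232). Icosl was lower in passage-8 cells (-4.14, adjusted p = 0.00248) and came to 0.16 in CD45-negative cells (adjusted p = 0.812). In passage-8 against CD45-negative cells Icosl was lower (-4.30, adjusted p = 0.00432), as were H2-Ab1 and Cd40, while Icam1 (1.19, adjusted p = 0.0166) and Cd276 (1.61, adjusted p = 0.0164) were higher. These were 1 lower and 2 higher of 4 ligands tested, against 6.98% and 6.96% of all genes.

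Some MHC class I genes, which serve CD8 T cells, were lower in the same comparisons. Of 12 genes of class I presentation, all tested, 5 were lower in passage-8 and 6 in CD45-negative cells than in CD45-positive cells, and none was higher, against 10.9% and 10.5% of all genes lower. The class I heavy chain genes were lower in both, H2-D1 at -4.03 and -3.51 (adjusted p = 0.000546 and 0.00207) and H2-K1 at -2.94 and -2.25 (adjusted p = 0.000843 and 0.00288). The immunoproteasome subunit genes Psmb8 (-2.43 and -2.41, adjusted p = 0.00251 and 0.00386) and Psmb9 (-2.11 and -3.34, adjusted p = 0.00227 and 0.00207) were lower too, and the light chain gene B2m came to -1.36 and -1.04 (adjusted p = 0.0081 and 0.0208). The peptide transporter gene Tap1 passed in CD45-negative cells (-2.41, adjusted p = 0.011). In CD45-positive cells against ventricle, where H2-Eb1 and Cd74 were lower, 9 of the 12 class I genes were higher and 0 lower, against 18.3% higher and 19.8% lower of all genes, with 2.60 for B2m (adjusted p = 0.000486) 3.31 for H2-D1 (adjusted p = 0.000345), 2.91 for H2-K1 (adjusted p = 0.000327) and 4.90 for Nlrc5, a regulator of class I genes (adjusted p = 0.0402). Of 8 genes of interferon gamma signalling, the pathway that induces Ciita, 7 were tested, and 1 was lower in passage-8 than in CD45-positive cells, the kinase gene Jak1 (-1.42, adjusted p = 0.0093), near the 10.9% of all genes. In CD45-negative cells 2 were higher than in CD45-positive cells, against 11.2% of all genes, Socs1 (1.83, adjusted p = 0.00586) and Jak2 (1.25, adjusted p = 0.0183). Ifng itself was at background on all 8 arrays.

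**Figure D5:**
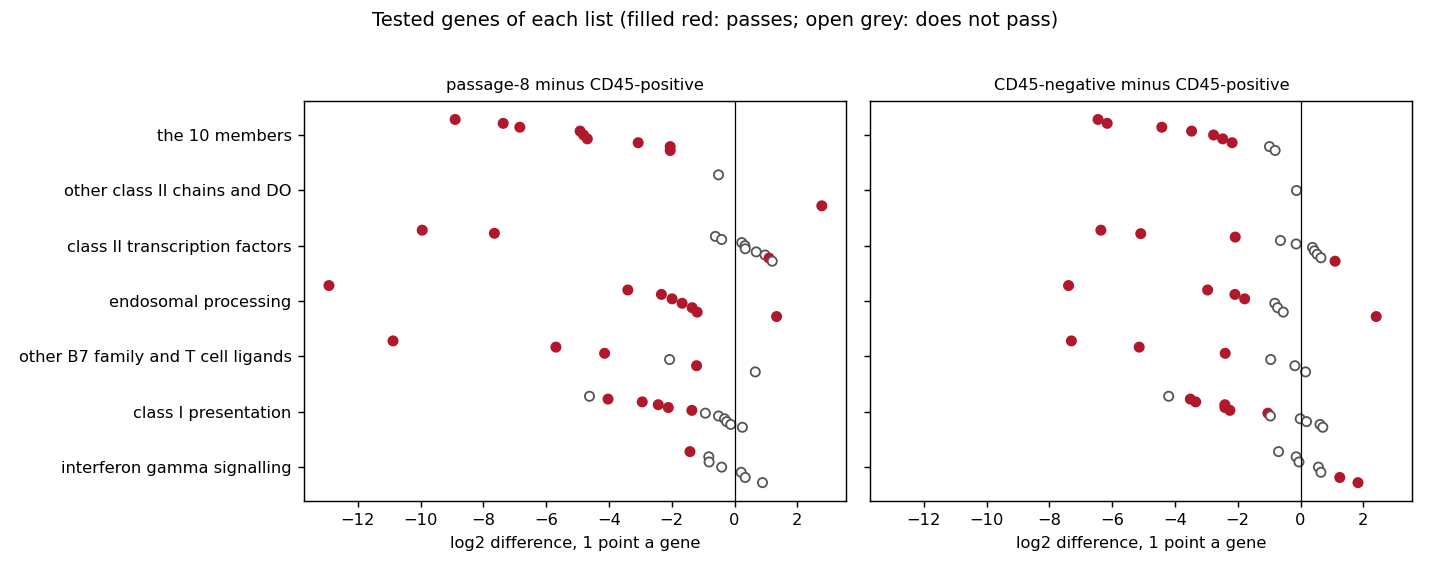
Log2 difference of each tested gene of the 10 class II presentation genes and of 6 lists of related genes, for passage-8 against CD45-positive cells (left) and CD45-negative against CD45-positive cells (right). Each point is 1 gene, filled red where it passed; the 10 genes and the ligands of T cells lie mostly left of 0, and transcription factors and interferon gamma signalling lie on both sides.

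Among themselves the 10 genes fell into more than 1 pattern over the 8 arrays. Pearson's r with the mean centred level of H2-Aa, H2-Ab1, H2-Eb1 and Cd74 was 0.995 for H2-Eb1, 0.984 for H2-Aa, 0.925 for Cd74 and 0.819 for H2-Ab1, which are part of that mean. Of the others it was 0.891 for Cd86, 0.79 for Cd40, 0.778 for H2-DMa, 0.336 for Cd80, 0.24 for H2-DMb1 and 0.097 for Ciita. These values describe 8 arrays in 4 groups. Among 15455 other genes, those most like the mean were Prom1 (r = 0.9944), Ppbp (0.9938), Slitrk6 (0.9934), Cd209g (0.9934), Olfr78 (0.9922) and Inpp4b (0.9911). As these 6 genes were picked by likeness to that mean on the same arrays, a shared pattern follows from the choice. None of them was well above background on the arrays of passage-8 or CD45-negative cells, and each was higher on both ventricle arrays than on both CD45-positive arrays. Inpp4b, for example, had -7.66 and -5.86 in passage-8 cells, -6.02 and -5.85 in CD45-negative cells, -0.99 and -1.02 in CD45-positive cells, with 1.25 and 0.94 in ventricle.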

How the data were processed

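Gene expression was measured on 8 one-colour (Cy3) Agilent arrays, 2 per group, with 200 ng of RNA labelled per sample, on 1 slide and 1 scan date. Each deposited scanner file gives spot intensity from Feature Extraction 10.7.3.1, per the file headers, background-subtracted and detrended within the array and not normalized between arrays. The authors' value table holds log2 values with medians from 6.087 to 6.094, which rank within an array as median signal minus local background. The sources used here do not name its tool, and it was used only as an alternative.

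From the processed signal, log2 values minus the array's 75th percentile were computed. Control and outlier spots (3671 and 167 to 248 per array) were left out, spots of a probe averaged, and the probe with the highest mean represented a gene. The 62976 spots gave 55681 probes, of which 27229 matched RefSeq by accession. For 3402 probes the symbol used differed from the array's gene name, by accession, by synonym or, without a name, as the probe name. All 8 arrays were fitted with limma 3.58.1 in R 4.3.3, with 1 mean per group, leaving 4 residual and 5.88 total degrees of freedom, so every SE rests on a pooled spread. Benjamini-Hochberg adjustment covered all genes tested in a comparison, two-sided, at a threshold of 0.05 with a minimum log2 difference of 1 in size. Exact permutation of 2 against 2 arrays cannot go below p = 0.333. The number of arrays limits the precision. On simulated CD45-negative against CD45-positive data of 21498 genes, the fit passed 78 of 100 genes shifted by a log2 value of 2, 88 of 100 shifted by 4, and 8 that were not shifted. The simulation gave a gene the same spread in every group. The measured SD was 0.534 in CD45-negative and 0.177 in CD45-positive cells, so these rates need not hold for the measured comparison. Members and lists were chosen with earlier results of these data known. All 10 members are named, and, of each pathway list, members that passed in the comparisons for which the text counts them, up to 4 per direction, with those behind counts of 5 or fewer.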

Additional observations from a re-analysis of the deposited data

How the results depend on the processing

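Over 14 processing alternatives and the 8 arrays left out in turn, the 55 tested pairs of gene and comparison gave 1210 values, of which 1202 kept their direction and 8 reversed, none of them passing as first computed. The reversed values were Ciita in CD45-negative cells against ventricle, at -0.01 with the 75th percentile taken over probes above background on all arrays, and at -2.71 to 3.09 without single arrays; Ciita in passage-8 cells against ventricle, at -3.13 to 0.75 without single arrays; Cd80 at 0.84 in passage-8 cells against ventricle with the mean of its probes, and at 0.12 in CD45-negative against CD45-positive cells with each probe fitted alone; H2-Ab1 in CD45-negative against CD45-positive cells, at -1.78 to 0.15 without single arrays; and H2-DMb1 in passage-8 cells against ventricle, at -0.03 to 0.35 without single arrays. The cause was not tested.

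Requiring detection on all arrays of both groups tests fewer genes, and left 4 passing members in CD45-negative against CD45-positive cells, 1 in passage-8 against CD45-negative cells, 4 in passage-8 cells against ventricle and 3 in CD45-negative cells against ventricle. That requirement also left H2-Aa, Cd86 and Cd40 untested in passage-8 against CD45-positive cells, where they had been among the 9 that passed. At an adjusted p under 0.01, 2 passed in CD45-positive cells against ventricle. With a trended, robust moderation 4 passed in passage-8 against CD45-negative cells. With only the 4 arrays compared, 0 passed there and 8 in CD45-positive cells against ventricle. Without single arrays the counts ran from 8 to 9 in passage-8 against CD45-positive cells, from 2 to 9 in CD45-negative against CD45-positive cells, from 2 to 5 in passage-8 against CD45-negative cells, from 6 to 7, from 5 to 7 and from 1 to 6 in passage-8, CD45-negative and CD45-positive cells against ventricle. The low of 2 came without either CD45-positive array, and the 5 without the first CD45-negative array. Where a group is left with 1 array, that array is assumed to vary like the other groups. The cause of these moves was not tested, except that fewer arrays leave fewer degrees of freedom. Across all genes, the share passing in passage-8 against CD45-negative cells was 13.9%, against 8.42% under median scaling, 8.08% with no filter and 0.795% with only the 4 arrays; without single arrays it ran from 3.6% to 19.8%, and in CD45-negative against CD45-positive cells from 4.62% to 26.6%. Median scaling moved every difference by -0.14 to 0.29 log2 units.

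Deviations of same-numbered arrays correlated at -0.2 to 0.19 between groups. Whether arrays of the same number come from a shared culture or animal is not given in the labels and was not tested. With the replicate block 9, 7 and 2 members passed among the cell comparisons, and 7, 6 and 6 against ventricle, the last with H2-Aa (-2.11, adjusted p = 0.0426) added. The pair of promoter cores stood in 3 member windows with the letters chosen later and in 1 with those chosen first. No array was saturated, and signals near background limit H2-Aa, Cd86, Cd74 and Cd40 in the groups named, where folds are given as bounds.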
